A study of Mus musculus with 18 samples.

Results

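De novo lipogenesis and desaturation genes were followed across brown adipocytes in which lipolysis had been stimulated, blocked or both. The group holds the 10 genes Fasn, Acaca, Acacb, Acly, Scd1, Scd2, Elovl5, Elovl6, Me1 and Mlxipl, found by their symbols among the 20295 genes of the count table, and all 10 were among the 12156 genes tested. The cells were BAT-LgT, a single wild-type line of mouse brown preadipocytes immortalised with SV40 large T antigen and differentiated in culture, from which added insulin and T3 had been withdrawn before treatment. On day 7, cells free of lipase inhibitors were left for 3 h with DMSO (group Vehicle), with 100 nM isoproterenol, which activates β-adrenergic receptors (group ISO), or with SR-3420 (group SR-3420). The other 3 groups had a first hour (1 h) with inhibitors against both ATGL and HSL, which cleave triglycerides and diglycerides, and then the same treatments. They are Lipase Inh. + Vehicle and, with a stimulus, Lipase Inh. + ISO or Lipase Inh. + SR-3420. SR-3420 is a ligand of ABHD5, the co-activator of ATGL, and activates this lipase without a receptor signal. The labels give its dose as 10 µM and the text of the study gives another, and the dose used for these samples was not settled. Each of the 6 groups had 3 samples, which the study describes as independent experiments. The p-values below rest on the spread between samples of a group, estimated from all 6 groups together unless another setting is named.

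In de novo lipogenesis, acetyl-CoA made from citrate in the cytosol is carboxylated to malonyl-CoA and joined into palmitate by fatty acid synthase, with electrons from NADPH. Elongases then lengthen the chain and desaturases place double bonds in it. In brown fat, fatty acid synthesis and the release of fatty acids from triglycerides run in the same cell, and the pathway is known to be controlled by the transcription factors SREBP1c and ChREBP, the latter encoded by Mlxipl.

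Levels are given in CPM, the counts of a gene scaled to a common library total with TMM factors, changes as log2 fold changes with their standard error (SE), and a gene is said to have risen or fallen when its adjusted p-value was at most 0.05 in edgeR's quasi-likelihood test over all genes. Total counts per library lay between 10310447 and 21205032 except in Lipase Inh. + SR-3420 replicate 2, which held 4263755 counts, 18.34% of them from the single gene Lars2. Of 12 markers of brown adipocytes, 11 were tested and Dio2 was at or near 0 in every library, whereas Adipoq lay between 2415 and 4026 CPM and Ucp1 between 1.387 and 788.6 CPM. Their summed level was lowest with SR-3420 (17580 to 17990 CPM) and highest in Lipase Inh. + ISO (32330 to 35560 CPM), with 18650 to 20880 CPM in Vehicle, 25540 to 27060 in ISO, 18650 to 19250 in Lipase Inh. + Vehicle and 19730 to 22230 in Lipase Inh. + SR-3420, and the part of this difference in the results was not tested. Lpl weighed most in this sum, with a mean of 13070 CPM over all libraries and a range from 7679 to 24870 CPM. The summed level of 9 markers of preadipocytes or fibroblasts stayed between 189.6 and 327.4 CPM, with Dpp4 at or near 0. The macrophage marker Ptprc and the endothelial marker Tie1 had no count in any library, and the summed lists reached at most 6.296 CPM for 6 macrophage markers, 0.6308 CPM for 5 endothelial markers and 2.626 CPM for 4 muscle markers. In bulk RNA, fewer cells that express a gene and less of its RNA per cell cannot be told apart.

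Desaturases dominated the group in every library. Scd1, which encodes the stearoyl-CoA desaturase that makes oleate and palmitoleate, took the most counts of any gene in 17 of the 18 libraries. Compared per kilobase of counted length in Vehicle, Scd1 had 8788 CPM per kb and its relative Scd2 had 1139. Fasn, the fatty acid synthase, followed at 131.1 CPM per kb. Levels of Me1 (104.5 CPM per kb), Elovl5 (100.7) and Acly (74.38) came next, and only Me1 and Elovl5 overlapped among the Vehicle samples, no other neighbours in this order of levels. Acaca had 45.85 CPM per kb, Acacb 38.76 and Mlxipl 32.63, and the elongase Elovl6 was far below all others at 2.641. Together the 10 genes took 5.719% ± 0.6743 (SD, n = 3) of library counts in Vehicle and 9.082% ± 0.5334 in ISO, most of it Scd1. The members lie on chromosomes 11 (Acly, Acaca and Fasn), 9 (Me1 and Elovl5), 5 (Acacb and Mlxipl), 3 (Elovl6) and 19 (Scd1 and Scd2), and 0 of their bases overlap another gene of the table.

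**Figure D1:**
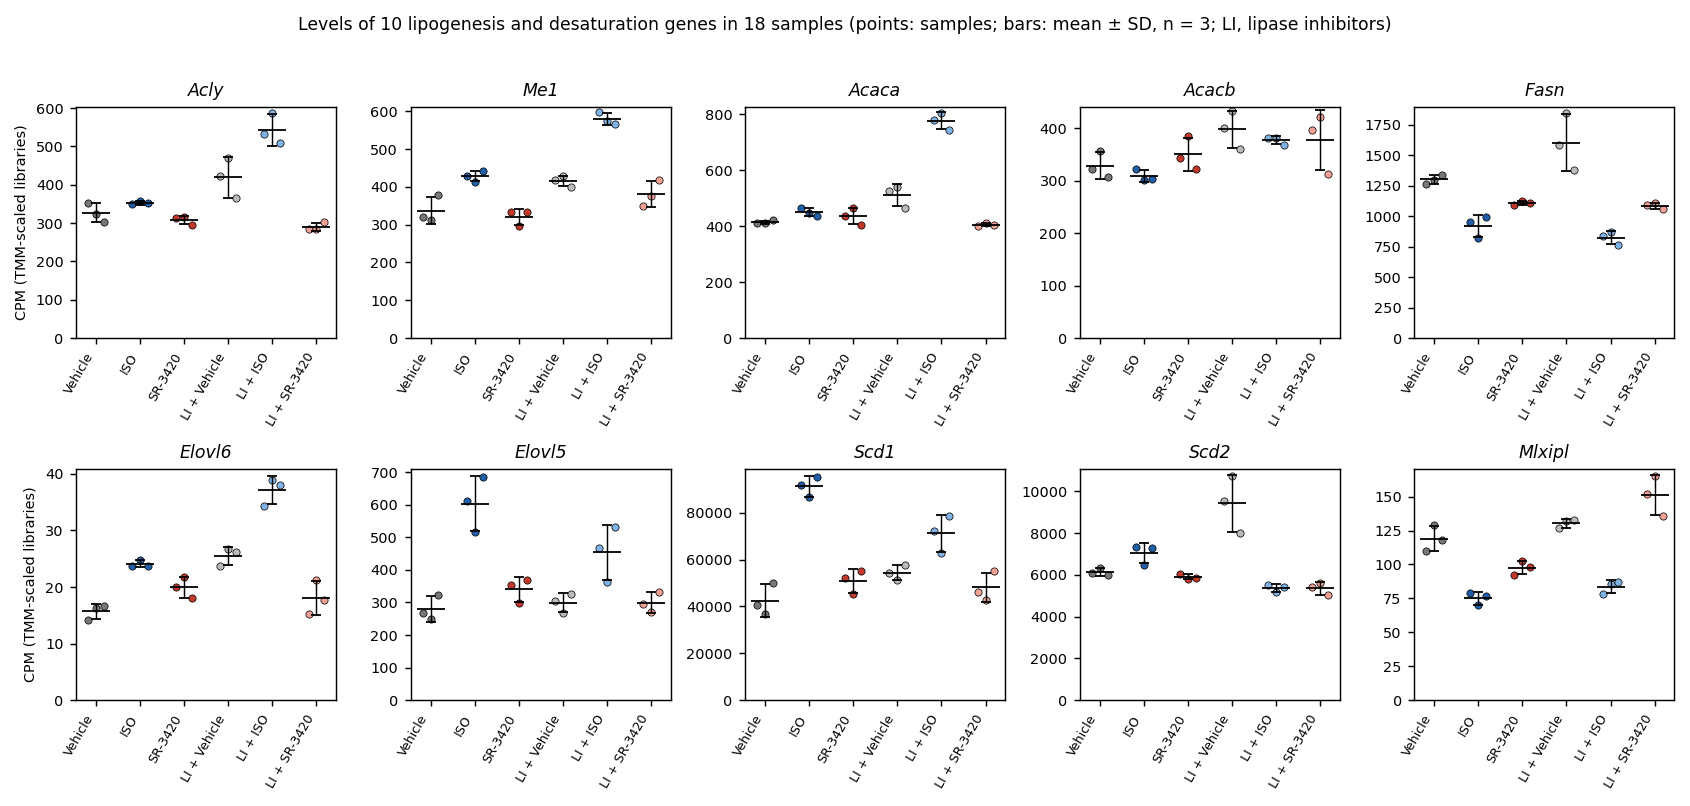
CPM (y axes, from 0) of the 10 genes in the 6 treatment groups (x axes), with a point per sample and a bar for the mean ± SD of 3 samples. Scd1 and Elovl5 are highest in ISO, Acly, Me1, Acaca and Elovl6 are highest in Lipase Inh. + ISO, and Fasn and Scd2 are highest in Lipase Inh. + Vehicle.

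The stretches of 250 bases before the annotated starts of 4 members are shown, since Scd1 and Elovl5 rose most with ISO and Fasn and Mlxipl fell. The sequences were read from the mouse genome build mm9, 5′ to 3′ on the strand of the gene: Scd1 at chr19:44482200-44482449 (minus strand), Elovl5 at chr9:77764922-77765171 (plus), Fasn at chr11:120685862-120686111 (minus) and Mlxipl at chr5:135582511-135582760 (plus). The stretches of Elovl5, Fasn and Mlxipl equal RefSeq's in build GRCm38.p6, and that of Scd1 had no match there. Capitals mark matches, on either strand, to a short list of motif letters described after the sequences.
Scd1: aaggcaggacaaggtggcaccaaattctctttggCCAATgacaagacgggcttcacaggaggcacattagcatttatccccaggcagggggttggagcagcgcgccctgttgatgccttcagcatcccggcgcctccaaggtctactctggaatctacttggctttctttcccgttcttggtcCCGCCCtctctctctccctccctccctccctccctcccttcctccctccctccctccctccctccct
Elovl5: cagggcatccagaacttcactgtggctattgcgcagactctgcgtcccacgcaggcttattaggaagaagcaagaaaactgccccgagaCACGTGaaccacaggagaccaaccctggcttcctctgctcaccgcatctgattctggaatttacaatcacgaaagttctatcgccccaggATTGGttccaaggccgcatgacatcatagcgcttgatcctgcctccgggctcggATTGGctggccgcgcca
Fasn: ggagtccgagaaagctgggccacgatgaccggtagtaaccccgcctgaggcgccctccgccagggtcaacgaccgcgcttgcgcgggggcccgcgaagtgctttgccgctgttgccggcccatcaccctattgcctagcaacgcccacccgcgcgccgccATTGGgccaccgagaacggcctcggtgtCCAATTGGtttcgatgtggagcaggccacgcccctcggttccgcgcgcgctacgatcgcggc
Mlxipl: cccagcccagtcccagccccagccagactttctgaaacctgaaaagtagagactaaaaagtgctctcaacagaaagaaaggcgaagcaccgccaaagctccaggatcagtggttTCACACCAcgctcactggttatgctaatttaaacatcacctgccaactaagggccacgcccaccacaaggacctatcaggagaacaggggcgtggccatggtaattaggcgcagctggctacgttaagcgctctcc
The E-box letters CACGTG, of the kind read by SREBP1c, USF and ChREBP, occurred in 1 of the 10 member promoters, that of Elovl5, and in 6.92% of all 20295 promoters of the same length. The sterol element core TCACNCCA occurred in 1 of 10, that of Mlxipl, against 3.28% of all. CCAAT was found in 4 of 10 (Acacb, Fasn, Elovl5 and Scd1), against 35.5% of all, and the pair in Fasn nearest the start overlap each other. The GC box GGGCGG was found in 3 of 10 (Acly, Me1 and Scd1), against 45.6%, and the cAMP element TGACGTCA in 0 of 10, against 2.14%. These matches describe letters only, and the members that rose with ISO did not share a motif that the members that fell lacked.

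ISO was set against Vehicle to see what β-adrenergic stimulation does to the pathway, and the desaturase Scd1 and the elongases rose while Fasn and Mlxipl fell. Of the 10 genes, 4 rose, against 26.8% of all genes tested, and 2 fell, against 25.0% of all. With an added limit of 1 on the absolute log2 fold change, the threshold of the study, 2 genes remained (Elovl5 and Scd1), against 5.03% of all genes that rose past it. The median log2 fold change of the 10 genes was 0.16, and that of all genes tested was -0.02.

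Scd1 showed the clearest step in level. It stood at 40713, 36670 and 50141 CPM in Vehicle and at 91723, 86722 and 95495 CPM in ISO, so the groups did not overlap. The log2 fold change was 1.10 ± 0.12 (SE; adjusted p-value 1.43e-07), or 2.15-fold. As a share of all library counts, which needs no scaling factor, Scd1 took 4.511%, 4.104% and 5.466% in Vehicle and 8.229%, 7.672% and 8.606% in ISO. The 95% Wilson interval of each of these shares spans at most a few hundredths of a percent and covers counting error only, so the spread between replicates was the larger error. Scd1 to Scd4 are close relatives that lie together on chromosome 19, with Scd1 at 44468940 to 44482199 and Scd2 at 44368166 to 44381352. How reads that match several of them were counted is not given in the sources used here, and their separate levels are to that degree uncertain. Scd3 averaged 179.1 CPM over all libraries and rose by 0.66 ± 0.11 with ISO (adjusted p-value 3.89e-05), and Scd4 averaged 1.214 CPM.

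Elovl5, an elongase of polyunsaturated fatty acids, moved from 268, 249 and 323 CPM in Vehicle to 611, 517 and 684 CPM in ISO. All ISO samples lay above all Vehicle samples, and the log2 fold change was 1.11 ± 0.13 (adjusted p-value 2.85e-07). Elovl6, which lengthens palmitate to stearate and so makes the preferred substrate of Scd1, went from 14.2, 16.3 and 16.7 CPM to 23.7, 24.9 and 23.7 CPM (log2 fold change 0.62 ± 0.11, adjusted p-value 6.63e-05). Me1, the cytosolic malic enzyme that yields NADPH, was higher by 0.34 ± 0.08 (adjusted p-value 0.000681), with 413 to 441 CPM in ISO against 312 to 378 CPM in Vehicle.

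The synthase and the transcription factor went the other way. Fasn stood at 1267, 1299 and 1342 CPM in Vehicle and at 954, 818 and 991 CPM in ISO, without overlap, a log2 fold change of -0.50 ± 0.09 (adjusted p-value 4.67e-05). Mlxipl went from 110.2, 129 and 118 CPM to 78.8, 69.8 and 76.7 CPM (-0.66 ± 0.08, adjusted p-value 3.09e-07). Neither Acly, the ATP citrate lyase that supplies acetyl-CoA, nor the acetyl-CoA carboxylase genes Acaca and Acacb passed the test, with log2 fold changes of 0.11, 0.12 and -0.09. Scd2 did not pass either (0.20 ± 0.09, adjusted p-value 0.0679), although its ISO samples (6491 to 7339.8 CPM) all lay above its Vehicle samples (5979.8 to 6339.7 CPM). It passed without ISO replicate 2 or Lipase Inh. + Vehicle replicate 2 or 3, with adjusted p-values down to 0.0326. Scd2 also passed with DESeq2 (adjusted p-value 0.0381) and with the replicate number added to the model as a block (0.0393).

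TMM factors lay between 0.885 and 0.9015 in ISO and between 1.0906 and 1.1198 in Vehicle libraries, and on total counts alone the log2 fold change of the median gene shifted by -0.31 in this comparison, so that changes with ISO are relative to this shift. On total counts the rise of Me1 was not called (0.04), the fall of Acacb was (-0.40, adjusted p-value 0.000875), and the uncalled values of Acly (-0.20), Acaca (-0.19) and Scd2 (-0.11) turned negative. The calls of Scd1, Elovl5, Elovl6, Fasn and Mlxipl held on that scale.

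**Figure D2:**
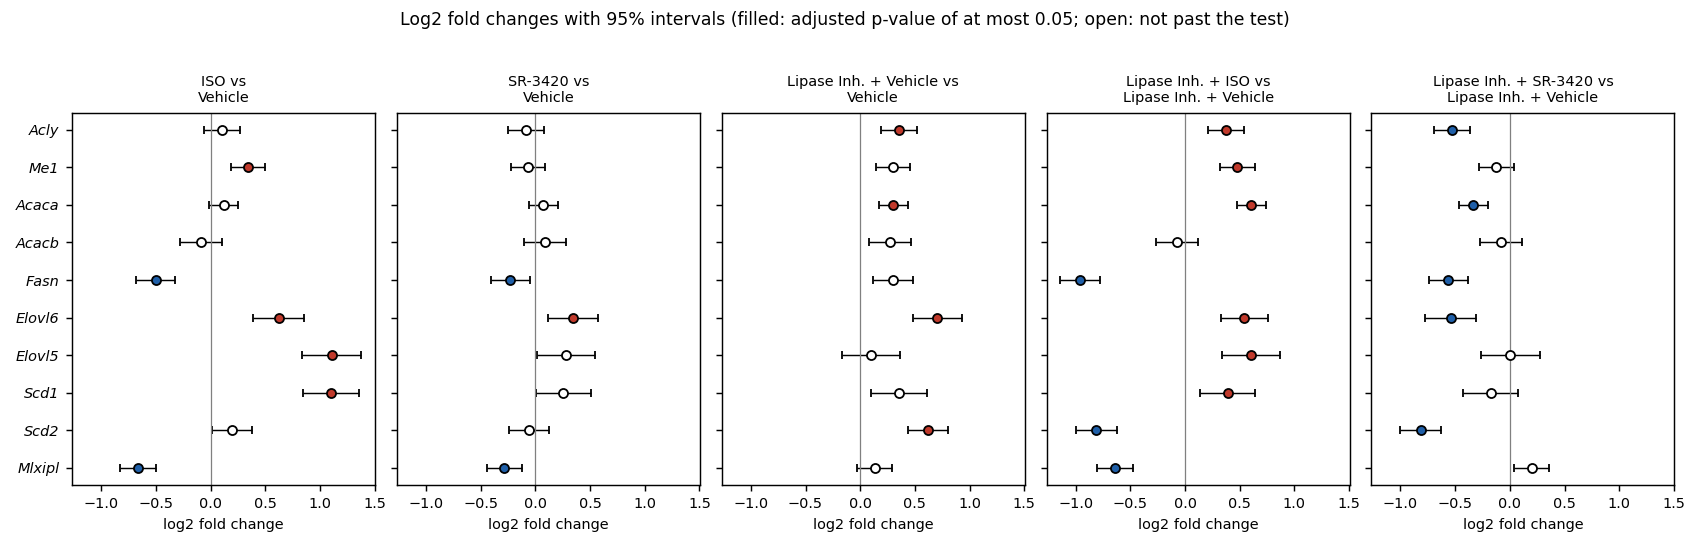
Log2 fold changes (x axes) of the 10 genes (y axis) in 5 comparisons, with 95% intervals. Filled points passed an adjusted p-value of 0.05 (red, higher, and blue, lower) and open points did not. Scd1 and Elovl5 reach 1.10 and 1.11 with ISO, and with Lipase Inh. + SR-3420 the 5 filled points all lie below 0.

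SR-3420 was set against Vehicle to see how these genes stood after lipolysis was stimulated without a receptor signal. Elovl6 rose, and Fasn and Mlxipl fell. Thus 1 of the 10 genes rose, against 26.0% of all genes tested, and 2 fell, against 25.4%. The median log2 fold change was 0.01 for the 10 genes and -0.02 for all genes. None changed by 1 or more on the log2 scale.

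Mlxipl stood at 92.6, 102 and 98.2 CPM with SR-3420, below all Vehicle samples, and fell by 0.28 ± 0.08 (adjusted p-value 0.00378). Fasn stood at 1096, 1125 and 1109 CPM, also below all Vehicle samples, and fell by 0.23 ± 0.09 (adjusted p-value 0.0294). It also fell with SR-3420 when the lipases were inhibited (-0.56 ± 0.09, Lipase Inh. + SR-3420 against Lipase Inh. + Vehicle). The part of lipolysis in the fall of Fasn was not tested. Elovl6 was at 20.06, 21.8 and 18.1 CPM, above all Vehicle samples, with a log2 fold change of 0.35 ± 0.11 (adjusted p-value 0.0121). The call of Fasn was lost without Vehicle replicate 2 or 3 or any SR-3420 sample (adjusted p-values reaching 0.0785), and that of Elovl6 without Vehicle replicate 1 or SR-3420 replicate 2 (up to 0.0715) and on total counts (0.19, adjusted p-value 0.161).

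Scd1 gave 52077, 45142 and 55108 CPM with SR-3420, a range that overlaps Vehicle, and a log2 fold change of 0.26 ± 0.12 with a 95% interval from 0.0039 to 0.51 (adjusted p-value 0.0840). Its share of library counts was 5.154%, 4.472% and 5.454%. Elovl5 was similar, at 0.28 ± 0.13 (adjusted p-value 0.0738). The calls of both genes depended on the setting. With the replicate number added to the model as a block, both rose (adjusted p-values 0.000236 for Elovl5 and 0.00566 for Scd1). Elovl5 was called without a filter on low counts (0.0213), with only these groups in the fit (0.0343) and without SR-3420 replicate 2, Lipase Inh. + ISO replicate 2 or Vehicle replicate 3 (adjusted p-values down to 0.0206), and Scd1 with DESeq2 (0.0410), without a filter (0.0322) and without SR-3420 replicate 2 or Vehicle replicate 3 (down to 0.0134). The log2 fold changes of Acly, Me1, Acaca, Acacb and Scd2 lay between -0.09 and 0.09, and on total counts Acly (-0.25) and Me1 (-0.23) fell, where the median gene moved by -0.16.

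Set against each other without inhibitors, ISO and SR-3420 differed most in Scd1 and Elovl5. Scd1 was higher with ISO by 0.85 ± 0.12 (adjusted p-value 2.2e-05) and Elovl5 by 0.83 ± 0.13 (adjusted p-value 4.98e-05), and neither gene overlapped between these groups. Me1 was higher with ISO by 0.41 ± 0.08 and Scd2 by 0.25 ± 0.09 (adjusted p-value 0.0355). Mlxipl was lower with ISO by a log2 fold change of -0.38 ± 0.08 and Fasn by -0.27 ± 0.09 (adjusted p-value 0.0221). In all, 4 of the 10 genes were higher with ISO, against 15.8% of all genes tested, and 2 were lower, against 13.9%, with a median of 0.23 for the 10 genes and -0.01 for all. The Scd2 call was lost without ISO replicate 1 or 3 or any SR-3420 sample (adjusted p-values up to 0.122) and on total counts (0.11), and the Fasn call without ISO replicate 2 or SR-3420 replicate 2 or 3 (up to 0.129). Acly, at 0.20 ± 0.08, was called only without Lipase Inh. + Vehicle replicate 2 or 3 among the samples left out (down to 0.0410), and Elovl6, at 0.28 ± 0.11, only without SR-3420 replicate 2 or Lipase Inh. + SR-3420 replicate 1 or 2 (down to 0.0381).

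Blocking the lipases alone changed few genes of the genome, but raised members of this pathway. In Lipase Inh. + Vehicle against Vehicle, all 10 genes had positive log2 fold changes, from 0.10 for Elovl5 to 0.70 for Elovl6. Of these, 4 rose, against 0.485% of all genes tested, and 0 fell, against 0.428%. By DESeq2 7 rose and 0 fell, and the share of all genes called by DESeq2 was not counted. The median was 0.30 for the 10 genes and -0.0017 for all genes.

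Scd2, a desaturase with the same activity as Scd1, showed this most clearly. Its levels were 9558, 10718 and 8006 CPM with inhibitors and 6104, 6339.7 and 5979.8 CPM in Vehicle, a log2 fold change of 0.62 ± 0.09 (adjusted p-value 0.000439). No library outside Lipase Inh. + Vehicle exceeded 7339.8 CPM. Elovl6 stood at 23.7, 26.7 and 26.2 CPM with inhibitors, above all Vehicle samples, and rose by 0.70 ± 0.11 (adjusted p-value 0.000734).

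The calls at the start of the pathway were less firm. Acly had 422, 471 and 365 CPM with inhibitors and 353, 324 and 304 CPM in Vehicle, and rose by 0.36 ± 0.08 (adjusted p-value 0.0260). Acaca had 525, 540.1 and 466 CPM against 410.3, 412 and 420.4 CPM, and rose by 0.30 ± 0.06 (adjusted p-value 0.0178). Neither gene overlapped between the groups. Both calls ended on total counts (adjusted p-values 0.183 and 0.204), with only these groups in the fit (0.224 and 0.169), and without Lipase Inh. + Vehicle replicate 1 or 2 or Vehicle replicate 2, which left 2 genes called. Acly was also lost without ISO replicate 1, Lipase Inh. + ISO replicate 1 or Vehicle replicate 3 (adjusted p-values up to 0.173 over the samples left out), and Acaca without Vehicle replicate 1 (up to 0.155). Fasn at 0.30, Me1 at 0.30, Scd1 at 0.35 and Acacb at 0.27 did not overlap between the groups either, but did not pass the test (adjusted p-values from 0.0666 to 0.225). The share of all genes without overlap between these groups was not counted, so the lack of overlap is description only. Me1 passed without Vehicle replicate 3 or Lipase Inh. + SR-3420 replicate 3 (down to 0.0114) and Fasn without Lipase Inh. + Vehicle replicate 3 (0.0195). With the replicate number added to the model as a block, Scd1 (0.00815), Me1 (0.0112), Acacb (0.0239) and Fasn (0.0483) passed.

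Whether ISO acts on these genes without lipolysis was read from Lipase Inh. + ISO against Lipase Inh. + Vehicle. This comparison and the next share the Lipase Inh. + Vehicle samples with the comparison above, so levels in which those samples are high enter all 3. With the lipases inhibited, 6 of the 10 genes rose with ISO, against 29.4% of all genes tested, and 3 fell, against 28.3%. The median was 0.38 for the 10 genes and -0.01 for all.

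Among the genes that supply substrates to the synthase, Acaca, Me1 and Acly rose. Acaca, the carboxylase gene of the lipogenic pathway, stood at 779.9, 805 and 744 CPM in Lipase Inh. + ISO, above all other libraries, whose highest value was 540.1 CPM. It rose by 0.60 ± 0.06 (adjusted p-value 4.75e-08). Me1 stood at 597, 573 and 566 CPM against 418, 428 and 401 CPM (0.48 ± 0.08, adjusted p-value 1.38e-05). Acly stood at 531, 588 and 509 CPM and rose by 0.37 ± 0.08 (adjusted p-value 0.000367), a call that ended on total counts (0.15, adjusted p-value 0.192), where the median gene moved by -0.23. Acacb, the carboxylase of the mitochondrial surface whose product restrains fatty acid oxidation, did not pass (-0.08 ± 0.09), except on total counts (-0.30, adjusted p-value 0.00814).

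Fasn, the next enzyme after Acaca, fell in the same samples. It stood at 836, 872 and 767 CPM in Lipase Inh. + ISO and at 1586, 1845 and 1381 CPM in Lipase Inh. + Vehicle, a log2 fold change of -0.96 ± 0.09 (adjusted p-value 4.32e-09), or 0.514 times the level. In counts, which need no scaling factor, Acaca had 0.318 ± 0.0053 counts per count of Fasn in Vehicle and 0.942 ± 0.0251 in Lipase Inh. + ISO (SD, n = 3). This ratio was 0.492 ± 0.0530 in ISO, 0.392 ± 0.0238 in SR-3420, 0.321 ± 0.0243 in Lipase Inh. + Vehicle and 0.373 ± 0.0084 in Lipase Inh. + SR-3420, and no library outside Lipase Inh. + ISO exceeded 0.547. Mlxipl fell by 0.64 ± 0.08 (adjusted p-value 3.27e-07), from 127, 132 and 133 CPM to 78.4, 85.3 and 87.2 CPM.

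The desaturases went in opposite directions. Scd2 fell by 0.81 ± 0.09 (adjusted p-value 8.97e-08), to 5523, 5169 and 5442 CPM, which is also below all Vehicle samples. Scd1 stood at 72440.0, 62782 and 78434 CPM against 54361, 51176 and 57521 CPM and rose by 0.39 ± 0.12 (adjusted p-value 0.00915). The Scd1 call ended on total counts (0.16, adjusted p-value 0.330), and its share of library counts was 6.735%, 5.889% and 7.297% against 5.940%, 5.548% and 6.290%, which overlap. The number of Scd1 counts per Scd2 count was 6.946 ± 1.322 in Vehicle and 12.99 ± 0.4434 in ISO. It was 5.882 ± 1.217 in Lipase Inh. + Vehicle and 13.23 ± 1.137 in Lipase Inh. + ISO, so its ranges under ISO overlapped with and without inhibitors (12.5 to 13.36 and 12.15 to 14.41), while the levels of both genes did not overlap. Elovl5 rose by 0.60 ± 0.13 (adjusted p-value 0.000404) and Elovl6 by 0.54 ± 0.10 (adjusted p-value 0.000108), and Elovl6 reached its highest levels of all groups, at 34.3, 39.0 and 38.1 CPM.

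**Figure D3:**
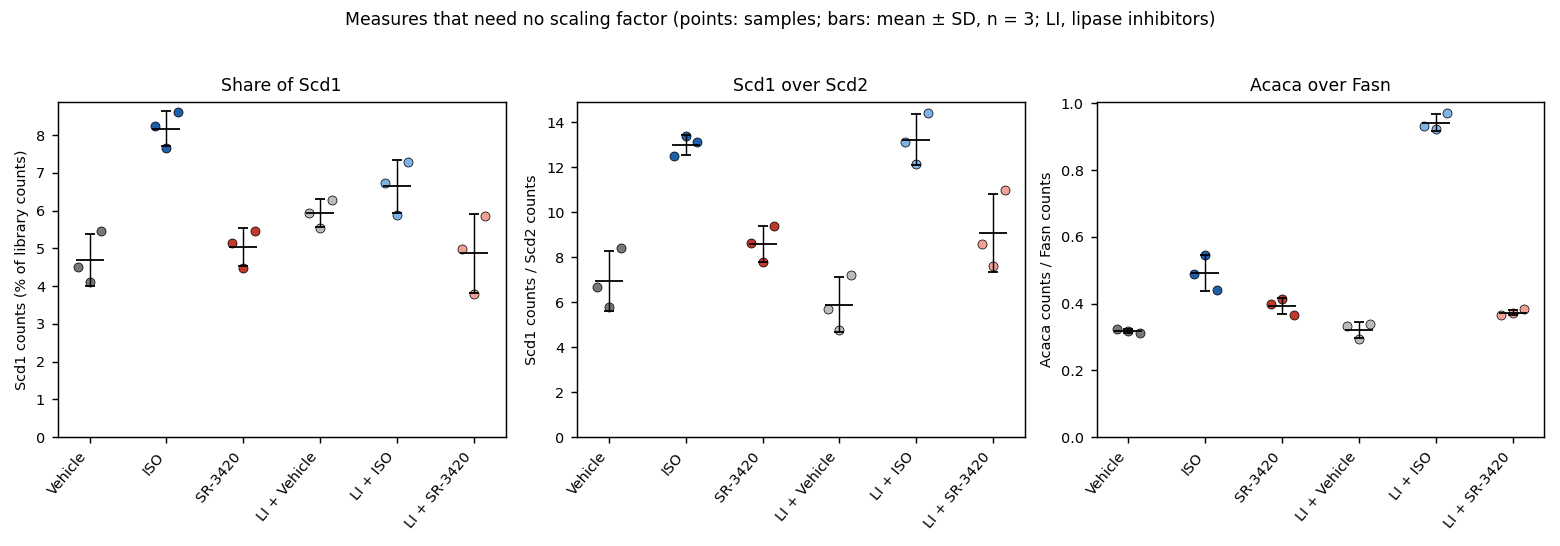
Percent of library counts taken by Scd1, Scd1 counts divided by Scd2 counts and Acaca counts divided by Fasn counts (y axes, from 0) in the 6 groups (x axes), with a point per sample and a bar for the mean ± SD of 3 samples. Scd1 takes 7.672% to 8.606% in the ISO libraries, its ratio to Scd2 lies between 12.15 and 14.41 in both ISO groups, and the Acaca to Fasn ratio stands at 0.942 in Lipase Inh. + ISO.

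SR-3420 needs ATGL to act on lipolysis, and Lipase Inh. + SR-3420 against Lipase Inh. + Vehicle asks what it does when this lipase is blocked. Here 5 of the 10 genes fell, against 1.36% of all genes tested, and 0 rose, against 2.99%. At an unadjusted p under 0.05 by edgeR 1 gene was higher (Mlxipl), and by DESeq2 0 rose and 5 fell. The share of all genes at either of these limits was not counted. The median was -0.25 for the 10 genes and 0.0025 for all. Without the shallow Lipase Inh. + SR-3420 replicate 2 the counts were again 5 and 0.

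Scd2 fell most, to 5409, 5629.6 and 5016 CPM, by 0.82 ± 0.09 (adjusted p-value 5.89e-06). Fasn, at 1093, 1107 and 1056 CPM, fell by 0.56 ± 0.09 (adjusted p-value 0.000298). Acly, at 283, 286 and 302 CPM, fell by 0.53 ± 0.08 (adjusted p-value 0.000267). In all 3 samples these genes were also below every Vehicle sample, for Acly narrowly (302 against 304 CPM), a difference that was not tested. Acaca, at 399.6, 411 and 404 CPM, fell by 0.33 ± 0.06 (adjusted p-value 0.00281), to a level that overlaps Vehicle. Elovl6, at 15.2, 21.3 and 17.7 CPM, fell by 0.54 ± 0.11 (adjusted p-value 0.00571), a call lost without Lipase Inh. + SR-3420 replicate 1 (0.0524).

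The remaining genes of the group did not pass. Mlxipl stood at 152, 165 and 136 CPM, above all other libraries, with a log2 fold change of 0.20 ± 0.08 (adjusted p-value 0.179). Scd1 had -0.18 ± 0.12 with a 95% interval from -0.43 to 0.08, and Elovl5 0.0035 ± 0.13 with an interval from -0.27 to 0.27. Scd1 took 4.874% ± 1.044 of library counts (SD, n = 3), and 5.16% ± 0.636 once Lars2 was left out of the total. Me1 (-0.12) and Acacb (-0.08) overlapped between the groups.

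How far inhibition of the lipases altered each response was tested as an interaction, in which the effect seen without inhibitors is subtracted from that seen with them. For ISO, 1 gene had a more positive effect with inhibitors (Acaca), against 14.9% of all genes tested, and 4 a more negative one, against 16.6%. Past the limit of 1 on the log2 scale there was only Scd2 (-1.01 ± 0.13, adjusted p-value 2.16e-06), against 4.71% of all genes. The rise of Scd1 was smaller with inhibitors (-0.71 ± 0.17, adjusted p-value 0.00291) and the fall of Fasn was larger (-0.46 ± 0.12, adjusted p-value 0.00613). Acaca gave 0.48 ± 0.09 (adjusted p-value 0.000269). Elovl5 gave -0.51 ± 0.18 (adjusted p-value 0.0366), a call that ended on total counts (-0.43, adjusted p-value 0.102) and without any of 8 samples in turn, which were replicate 1 of Vehicle, ISO, Lipase Inh. + Vehicle and Lipase Inh. + ISO, replicate 2 of Vehicle and Lipase Inh. + ISO, and replicate 3 of ISO and Lipase Inh. + Vehicle (adjusted p-values up to 0.109). Acly, at 0.26 ± 0.11, was called without Lipase Inh. + Vehicle replicate 2 or Vehicle replicate 3 (down to 0.0151). Elovl6 (-0.08 ± 0.15), Me1 (0.13 ± 0.11), Acacb (0.01 ± 0.13) and Mlxipl (0.02 ± 0.11) did not pass. The median of the 10 genes was -0.03, and 0.01 for all genes.

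For SR-3420, 1 gene had a more positive effect with inhibitors (Mlxipl), against 12.5% of all genes, and 5 a more negative one, against 14.8%. Mlxipl gave 0.48 ± 0.11 (adjusted p-value 0.00199), with levels below Vehicle under SR-3420 alone and above Lipase Inh. + Vehicle under SR-3420 with inhibitors. Elovl6 gave -0.89 ± 0.16 (adjusted p-value 0.000237) and Scd2 -0.76 ± 0.13 (adjusted p-value 0.000107). Acly gave -0.44 ± 0.11 (adjusted p-value 0.00577) and Acaca -0.41 ± 0.09 (adjusted p-value 0.00193). Fasn passed narrowly at -0.33 ± 0.12 (adjusted p-value 0.0468), and the call held under only 5 of the 18 samples left out in turn, ISO replicate 2 or 3, Lipase Inh. + ISO replicate 2 or 3 and Lipase Inh. + Vehicle replicate 3. It was also lost on total counts (-0.29, adjusted p-value 0.145) and with only these groups in the fit (adjusted p-value 0.0552), and without the shallow Lipase Inh. + SR-3420 replicate 2, where 4 genes gave a more negative effect, its adjusted p-value was 0.0576. Scd1, at -0.43 ± 0.17 (adjusted p-value 0.0670), was called without SR-3420 replicate 2, Vehicle replicate 3 or Lipase Inh. + SR-3420 replicate 3 (down to 0.0154), with DESeq2 (0.0250), without a filter on low counts (0.0154) and with Lars2 left out of the library sizes (0.0451). It was also called with the replicate number added to the model as a block (0.00270). The median was -0.37 for the 10 genes and 0.01 for all.

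Ranked by level over the 6 groups, Fasn was highest in Lipase Inh. + Vehicle (1381 to 1845 CPM) and then in Vehicle (1267 to 1342), with SR-3420 (1096 to 1125) and Lipase Inh. + SR-3420 (1056 to 1107) overlapping below them and ISO (818 to 991) and Lipase Inh. + ISO (767 to 872) overlapping at the bottom. Scd1 was highest in ISO, then in Lipase Inh. + ISO, and its other 4 groups lay between 36670 and 57521 CPM. Among these, Lipase Inh. + Vehicle (51176 to 57521 CPM) lay above Vehicle (36670 to 50141 CPM) without overlap. SR-3420 and Lipase Inh. + SR-3420 each overlapped both. Mlxipl was lowest in ISO and Lipase Inh. + ISO, which overlapped, and highest in Lipase Inh. + SR-3420. Among the genes whose standing over the 6 group means was nearest to that of Fasn, by the root mean square difference of centred log2 levels among 9344 genes, were Pold1 (0.0634), Fkbp5 (0.0734), 2510009E07Rik (0.0850) and Smim1 (0.0952). For Scd1 they were Tmem135 (0.107), Dtnbp1 (0.120), Fabp5 (0.123), Fosl2 (0.124) and Ugp2 (0.125), and for Mlxipl Ddhd1 (0.0600), Cant1 (0.0704), N4bp2 (0.0748), Klf3 (0.0860) and Tet3 (0.0863).

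Other genes of the pathway were counted in 5 lists of 59 genes, of which 57 were tested, and the 3 genes of each list with the highest mean CPM are named, together with Srebf1, Insig1, Nr1h3 and Thrsp. The shares of all genes tested that these counts stand against are 26.8% that rose and 25.0% that fell under ISO, 26.0% and 25.4% for SR-3420, 0.485% and 0.428% for inhibitors alone, 29.4% and 28.3% in Lipase Inh. + ISO, and 2.99% and 1.36% in Lipase Inh. + SR-3420. A count near these shares, such as 4 of 15, is not a result about its list, and median log2 fold changes over all genes were -0.02 with ISO and -0.01 in Lipase Inh. + ISO. Of 15 genes of transcriptional control, 4 rose and 5 fell with ISO, 3 rose and 5 fell with SR-3420, 1 rose with inhibitors alone, 2 rose and 8 fell in Lipase Inh. + ISO, and 0 rose and 2 fell in Lipase Inh. + SR-3420, each against its own vehicle. The median of this list was -0.02 with ISO and -0.31 in Lipase Inh. + ISO. Srebf1, which encodes SREBP1c, averaged 1132 ± 88.2 CPM in Vehicle and 607 ± 46.3 CPM in ISO, a log2 fold change of -0.90 ± 0.08 (adjusted p-value 3.99e-09). In Lipase Inh. + ISO it stood at 434 ± 30.4 CPM (-1.33 ± 0.08), and the effect of ISO was more negative with inhibitors (interaction -0.43 ± 0.11, adjusted p-value 0.00495). Thrsp, a nuclear protein tied to lipogenic expression, fell by 1.79 ± 0.12 in Lipase Inh. + ISO, against a log2 fold change of -0.22 ± 0.12 with ISO that did not pass, and the interaction was -1.57 ± 0.17 (adjusted p-value 2.59e-07).

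Insig1, which retains SREBP precursors in the endoplasmic reticulum and is itself a target of SREBP, turned direction. It averaged 859.5 ± 52.3 CPM in Vehicle, 1848 ± 90.7 in ISO, 1770 ± 51.4 in SR-3420, 1293 ± 106 in Lipase Inh. + Vehicle, 186 ± 12.9 in Lipase Inh. + ISO and 1108 ± 29.2 in Lipase Inh. + SR-3420. With ISO it rose by 1.10 ± 0.07 without inhibitors and fell by 2.80 ± 0.08 with them, and the interaction was -3.90 ± 0.10 (adjusted p-value 9.96e-17). Nr1h3, which encodes LXRα, rose with SR-3420 (0.38) and fell in Lipase Inh. + ISO (-0.34).

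Of 10 genes tested for the supply of acetyl-CoA, citrate and NADPH, 3 rose and 3 fell with ISO, 1 rose and 7 fell with SR-3420, 1 rose with inhibitors alone, 5 rose and 3 fell in Lipase Inh. + ISO, and 3 fell in Lipase Inh. + SR-3420, with medians of 0.10 with ISO and 0.17 in Lipase Inh. + ISO. The 3 that fell in Lipase Inh. + ISO, named after their values were seen, were Idh1, a cytosolic source of NADPH (-1.38 ± 0.07), Slc25a1, the mitochondrial citrate carrier (-0.75 ± 0.08), and Acss2, an acetyl-CoA synthetase (-0.46 ± 0.09). The 5 that rose there were Mdh1 (0.76 ± 0.07), Pgd (0.36 ± 0.09), G6pdx (0.23 ± 0.06), Pdha1 and Pcx, so the genes of this list did not move together. Pdha1 of pyruvate dehydrogenase rose by 0.23 with ISO and 0.46 in Lipase Inh. + ISO, Pcx, the pyruvate carboxylase gene, rose by 0.22 and 0.27, and Cs, citrate synthase, did not pass. Of 14 other desaturases and elongation genes, 6 rose and 1 fell with ISO, 5 rose and 2 fell with SR-3420, 1 rose with inhibitors alone, 4 rose and 3 fell in Lipase Inh. + ISO, and 1 rose and 2 fell in Lipase Inh. + SR-3420, with medians of 0.24 with ISO and -0.14 in Lipase Inh. + ISO. Hsd17b12 and Hacd2 (listed as Ptplb), which serve the reduction and dehydration steps of elongation for all elongases, rose with ISO by 0.87 ± 0.08 and 0.96 ± 0.06. Fads1, the Δ5 desaturase, had 142 to 151 CPM in Lipase Inh. + ISO and 270.2 to 355.5 CPM in all other groups, a fall by 1.19 ± 0.06 against Lipase Inh. + Vehicle.

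Of 11 genes that restrain acetyl-CoA carboxylase or remove malonyl-CoA, 3 rose and 4 fell with ISO, 4 rose and 2 fell with SR-3420, 0 changed with inhibitors alone, 5 rose and 4 fell in Lipase Inh. + ISO, and 2 rose in Lipase Inh. + SR-3420, with medians of 0.0098 with ISO and -0.14 in Lipase Inh. + ISO. Prkaa1, a catalytic subunit of AMPK (0.75), and Stk11, the kinase upstream of AMPK (0.83), rose in Lipase Inh. + ISO, where Trib3, which directs carboxylase to degradation, fell by 2.36 ± 0.10. Of 7 genes that feed electrons to desaturases or activate fatty acids, 5 rose with ISO, 2 rose and 3 fell with SR-3420, 1 rose with inhibitors alone, 4 rose and 2 fell in Lipase Inh. + ISO, and 1 rose and 1 fell in Lipase Inh. + SR-3420, with medians of 0.36 with ISO and 0.30 in Lipase Inh. + ISO. Acsl1 and Acsl4, acyl-CoA synthetases, rose with ISO by 2.00 ± 0.07 and 2.19 ± 0.12, and with SR-3420 by 1.43 and 1.00. Cyb5b, a cytochrome b5 of the outer mitochondrial membrane, rose with ISO (0.28) and fell in Lipase Inh. + ISO (-0.49). The other genes of electron supply, Cyb5a and Cyb5r3, named after their values were seen, did not pass with ISO (0.0010 and 0.12). In Lipase Inh. + ISO Cyb5a rose (0.30 ± 0.06) and Cyb5r3 did not pass (0.08 ± 0.07).

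**Figure D4:**
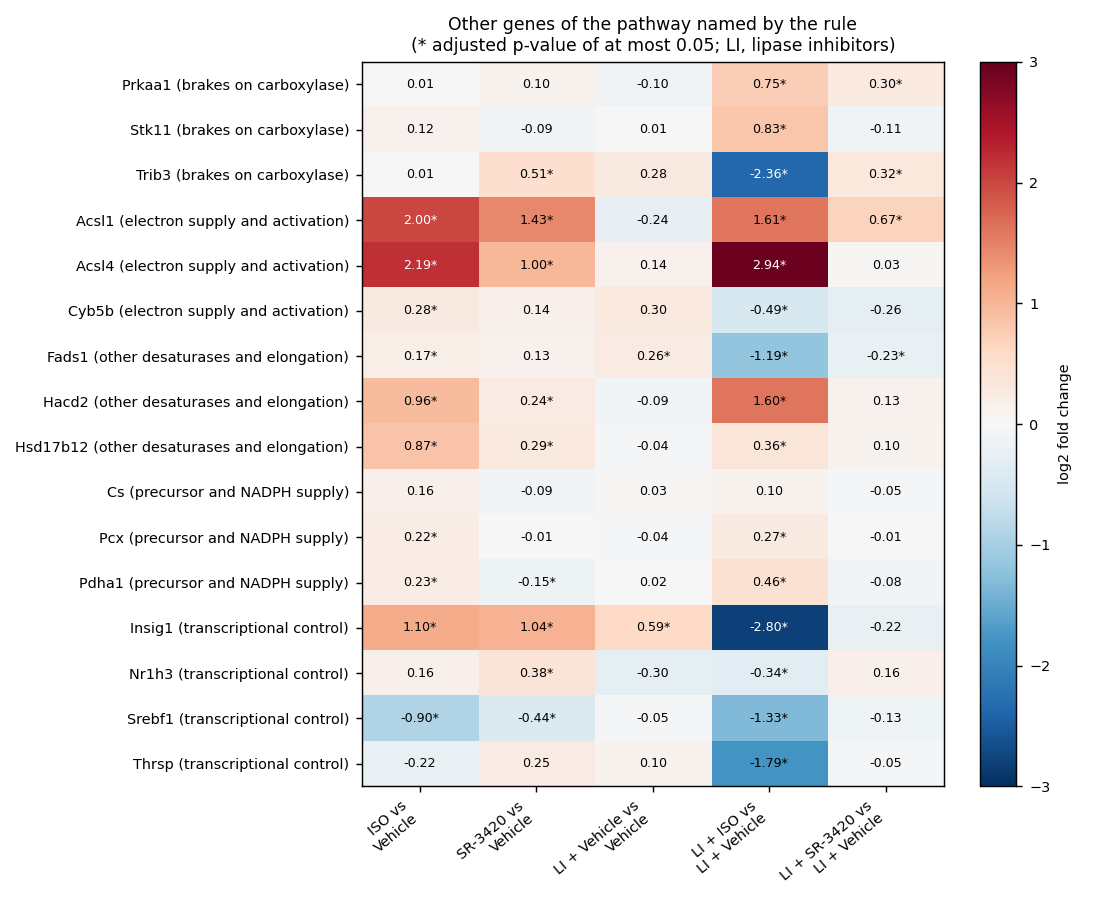
Log2 fold changes, as colour and number, of the other pathway genes named by the rule (rows, with their list) in 5 comparisons (columns), with an asterisk for an adjusted p-value of at most 0.05. Insig1 is at 1.10 with ISO and -2.80 in Lipase Inh. + ISO, and Acsl1 and Acsl4 are at 2.00 and 2.19 with ISO.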

How the data were processed

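RNA-seq libraries of 18 samples were analysed from the deposited table of whole-number counts per RefSeq gene, which the authors made with TruSeq libraries, STAR 2.4.2a on the mouse genome build mm9 and HOMER, counting with iRNA-seq. The counts are neither normalised nor filtered, 0 columns belonged to other samples, and strand use in counting is not given in the sources used here. The study's methods mention a limit on reads per position, but Scd1 reached 319.9 counts per counted base in the library where this was highest. Lengths and positions in the table served only for CPM per kb and promoters.

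Groups came from the sample titles. Counts were fitted in R 4.3.3 with edgeR 4.0.16 (filterByExpr with a minimum count of 10 and minimum total of 15, TMM, glmQLFit and glmQLFTest) in 1 model of 6 group means, with Benjamini-Hochberg adjustment over 12156 genes. The study used DESeq2, which was run as an alternative (version 1.42.0) beside RLE factors, total counts, library sizes without Scd1 and Lars2, other filters, only the groups compared, a replicate block and leaving out each sample. SEs came from the log2 fold change and the root of its F statistic. On simulated counts with 200 genes changed 3-fold among 12029 tested, 98% were recovered for ISO against Vehicle with 17 false calls. For the ISO interaction 94.5% were recovered with 10 false calls. The planted changes were larger than that of any member and held no replicate effect, so these rates do not give the recovery of changes as small as those above.

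The members and lists were chosen with earlier results of these data known. All members, the 3 genes of each list with the highest mean CPM, Srebf1, Insig1, Nr1h3 and Thrsp, and the 5 genes nearest to Fasn, Scd1 and Mlxipl are named, except for 1 gene near Fasn that is not reported here. Promoters are the 250 bases before the table's starts, and those of 8 members equal RefSeq's in build GRCm38.p6. Those of Scd1 and Scd2 had no match there.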

Additional observations from a re-analysis of the deposited data

Results flagged for a closer look

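Tests of whether inhibitors changed an effect set 5 members apart for ISO and 6 for SR-3420, at adjusted p-values of at most 0.05 in edgeR's quasi-likelihood test. For ISO the differences, with inhibitors minus without, on the log2 scale were -1.01 for Scd2, -0.71 for Scd1, -0.51 for Elovl5, -0.46 for Fasn and 0.48 for Acaca. For SR-3420 they were -0.89 for Elovl6, -0.76 for Scd2, -0.44 for Acly, -0.41 for Acaca, -0.33 for Fasn and 0.48 for Mlxipl. Acaca is thus of opposite sign for the stimuli, and the difference between its values was not itself tested. Both sets share the Vehicle and Lipase Inh. + Vehicle samples, and Scd2, Acly, Acaca and Elovl6 had already risen in Lipase Inh. + Vehicle against Vehicle. Fasn (0.30) and Scd1 (0.35) also stood higher there without overlap, but did not pass the test. Fasn overlapped between ISO (818 to 991 CPM) and Lipase Inh. + ISO (767 to 872 CPM).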

How the results depend on the processing

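For the 80 member results (10 genes in 8 comparisons), direction and side of the threshold held in 80 with RLE factors and with a mean CPM of at least 1, in 79 without Scd1 and Lars2 in the library sizes, in 74 with DESeq2 and with only the groups compared, in 75 without a filter on low counts and in 58 on total counts, and no called value turned its direction in these or the replicate block. On total counts the uncalled values that turned were Acly (-0.20), Acaca (-0.19) and Scd2 (-0.11) with ISO, Acaca (-0.087) and Acacb (-0.071) with SR-3420, Elovl5 in Lipase Inh. + SR-3420 (-0.10), Elovl6 in the ISO interaction (0.0011) and Acaca in ISO against SR-3420 (-0.10), where the scaling itself moves the median gene. Elovl5 in Lipase Inh. + SR-3420, near 0 throughout, was also -0.0086 without a filter, -0.0061 with only the groups compared and -0.0049 with the block. For SR-3420 against Vehicle, members that rose numbered 0 on total counts, 2 with DESeq2, 3 without a filter, 2 with only the groups compared and 3 with the block, and those that fell 4 on total counts. With inhibitors alone, 2 rose on total counts, 7 with DESeq2, 2 with only the groups compared and 8 with the block. In the ISO interaction 2 were more positive with the block. Shares of all genes called under these other settings were not counted, so these counts of members have no background beside them. Relative to library counts without Scd1 itself, Scd1 came to 8.898% in ISO and 6.301% in Lipase Inh. + Vehicle. Leaving out single samples gave 0 to 3 members that rose and 1 to 2 that fell with SR-3420, 2 to 5 that rose with inhibitors alone, 1 to 2 more positive in the ISO interaction and 1 to 2 lower in ISO against SR-3420. It turned uncalled values of Me1 with SR-3420 (-0.118 to 0.0188), Acacb (-0.166 to 0.0381) and Elovl5 (-0.0836 to 0.0692) in Lipase Inh. + SR-3420, Acacb (-0.0516 to 0.0802) and Mlxipl (-0.0349 to 0.08) in the ISO interaction, Me1 in the SR-3420 interaction (-0.142 to 0.0058) and Acaca in ISO against SR-3420 (-0.0035 to 0.0946). Apart from effects that follow from scaling, or from fewer samples in the fit, the cause was not tested. In the labels, samples of different groups are tied only by a replicate number. Deviations from group means correlated at a mean of -0.0118 for number 1, 0.1503 for number 2 and 0.1903 for number 3. Of 18 samples, 12 correlated best with their own number. The main model left the number out, and whether it marks a shared experiment was not tested. With the number as a block, 66 of the 80 results kept their side and direction, 13 passed in addition and 0 calls were lost. Those that passed include Elovl5 (adjusted p-value 0.000236) and Scd1 (0.00566) with SR-3420 and Scd1 in the SR-3420 interaction (0.00270), and replicate 2 was lowest and replicate 3 highest for both genes in all 6 groups. The least abundant member, Elovl6, had 80 counts in the shallowest library, Lipase Inh. + SR-3420 replicate 2, and depth limits its values most.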
